A study of Homo sapiens with 8 samples.

Results

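The comparison was of Calu-6 cells given KI696 for 24 h against Calu-6 cells given the vehicle DMSO for 24 h, described across genes beyond the well-known targets of NRF2. It used the 4 libraries whose column headers name those conditions, 2 with KI696 and 2 with DMSO, of 8 libraries in the series. The spread behind standard errors and p-values was estimated over all 8 libraries, those of 48 h included. Genes with at least 1 CPM (reads of a gene scaled by the authors to a common library size) in at least 2 of the 8 libraries were kept, which left 13213 genes. The classic NRF2 targets, a list of 76 antioxidant, glutathione, NADPH and phase II genes of which 61 were tested, served as a yardstick and were otherwise set aside.

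Calu-6 is an established line from a human lung tumour, labelled non-small cell and wild type, and no group carried an added genetic change. The groups were KI696 at 1 µM for 24 h, DMSO for 24 h, KI696 at 1 µM for 48 h and DMSO for 48 h, each with 2 libraries of poly(A) RNA from cells in 6-well plates. Whether both libraries of a condition stem from different cultures is not stated, and the p-values then reflect only the spread between these libraries, which may be technical. All libraries come from 1 line, and in such bulk RNA fewer cells of a kind and less RNA per cell cannot be told apart.

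KEAP1 is an adaptor protein that binds the transcription factor NRF2 (gene NFE2L2) and passes it to a ubiquitin ligase, so that NRF2 is degraded in unstressed cells. KI696 is a small molecule that occupies the NRF2 binding pocket of KEAP1 without reacting with its cysteines. NRF2 that escapes degradation pairs with small MAF proteins on antioxidant response elements, and in lung cancer this pathway is often switched on by mutations of KEAP1 or NFE2L2.

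At 24 h, reads recovered from the table came to 8161520 and 6974235 with KI696 and to 8265115 and 7048197 with DMSO. A floor of 3 reads was 0.367 and 0.428 CPM with KI696, against 0.356 and 0.415 CPM with DMSO. Such floors cover counting error only. The classic NRF2 targets took 2.69 and 2.72% of the table's CPM with KI696, against 1.08 and 1.09% with DMSO, and 52 of the 61 tested were higher.

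One pattern among the libraries bears on the decreases and is given first. NKX2-1, the transcription factor that marks lung epithelium, had 0.857 and 2.14 CPM with KI696, against 28.96 and 19.4 CPM with DMSO at 24 h. At 48 h the same gene had 12.8 CPM in library A and 1.16 CPM in library B with KI696, against 12.1 CPM in A and 2.49 CPM in B with DMSO. It was thus low in both treated libraries of 24 h and in the B library of either 48 h group. In all, 258 tested genes (1.95%) differed by at least 1 log2 unit between the 2 libraries of both 48 h groups, and 247 of them were higher in library A of both. Of these 258 genes 214 were lower with KI696 at 24 h and 0 were higher, with a median log2 change of −2.76 at 24 h and −0.43 at 48 h. They are called variable at 48 h below, and results at 24 h are given with and without them. This pattern moved with the treatment at 24 h, and its part in the decreases was not tested.

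The marker lists place this pattern. Of all tested genes 30.5% were lower with KI696 at 24 h and 18.1% higher. All 17 tested epithelial markers were lower with KI696, with a summed level of 933 and 1007 CPM against 2811 and 2230 CPM with DMSO, and 11 of them were variable at 48 h. Of 12 tested lung lineage markers 11 were lower, with sums of 97.7 and 104 CPM against 230 and 247 CPM, and 8 were variable at 48 h. Without KI696 library A the count of lower lung lineage markers was 5, and without KI696 library B or DMSO library B it was 7. KRT18, KRT8 and KRT7 had 149 to 506 CPM with KI696, against 396 to 764 CPM with DMSO. Of 9 mesenchymal markers 7 were lower and 2 higher, with sums of 4680 and 4670 CPM with KI696 against 6641 and 6889 CPM with DMSO. The 2 that rose were SNAI2 and ZEB1, both repressors of epithelial genes. ZEB2, also a repressor of epithelial genes, was lower, with 2.33 and 2.14 CPM with KI696, against 5.70 and 6.78 CPM with DMSO. SNAI2 had 39.8 and 41.6 CPM with KI696, against 15.3 and 14.5 CPM with DMSO. Fibroblast and endothelial markers were lower in 7 of 7 tested, with sums of 93.6 and 93.5 CPM against 248 and 236 CPM. COL3A1 and PDGFRB were among them. Of the endothelial genes, KDR had 0 and 0.713 CPM with KI696, against 9.26 and 6.23 CPM with DMSO. At 48 h KDR had 3.08 CPM in A and 0.0969 CPM in B with KI696, against 0.823 and 0 CPM with DMSO. VWF and CDH5 lay at or below 0.570 CPM in all 4 libraries of 24 h. Of the leukocyte markers 3 were tested and LYZ was lower, a call lost without KI696 library A and without DMSO library A. The list summed to 37.4 and 39.3 CPM with KI696 against 49.1 and 48.3 CPM with DMSO and was mostly CD68.

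At an adjusted p under 0.05 by limma, 6422 genes (48.6%) differed at 24 h. These were 2388 higher genes (18.1%) and 4034 lower ones (30.5%), so that 37.2% of the calls were higher. The groups of 24 h did not overlap in 77.2% of tested genes, called or not. The split rested on the scaling. The median log2 change of all tested genes was −0.12 as deposited, and −0.01 after the libraries were shifted to an equal trimmed mean, where 3403 genes were higher (25.8%) and 3034 lower (23%), or 52.9% higher. With the lung lineage covariate (the mean level of the lung lineage markers of each library as a term in the fit), 1092 genes were higher (8.26%) and 1892 lower (14.3%). Changes of gene lists below are therefore read against the median of −0.12.

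The responses in the 2 directions differed in shape. Outside the classic list 2336 genes rose, by a median of 0.43 on the log2 scale, and 132 of them by at least 1. With the classic targets counted, 170 genes rose by at least 1 (1.29%). The 4032 lower genes fell by a median of 0.68, 1285 of them by at least 1 (9.73%). Of the 132 large increases 0 were variable at 48 h, while 214 of the 1285 large decreases were. Among 402 decreases of at least 2 log2 units 191 were variable at 48 h, against 0 of 17 increases of that size.

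Level and direction went together. Among genes averaging under 5 CPM in the 4 libraries, 2.59% were higher and 31.8% lower. From 100 to 500 CPM 34.6% were higher and 27.1% lower, and of the 247 genes at 500 CPM and over 38.1% were higher and 18.2% lower. After trimmed-mean scaling the shares higher were 3.75%, 48.0% and 61.1% in these ranges, and the shares lower 26.5%, 17.6% and 12.1%. The median standard error of the log2 change was 0.41 under 5 CPM and 0.06 at 500 CPM and over.

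**Figure D1:**
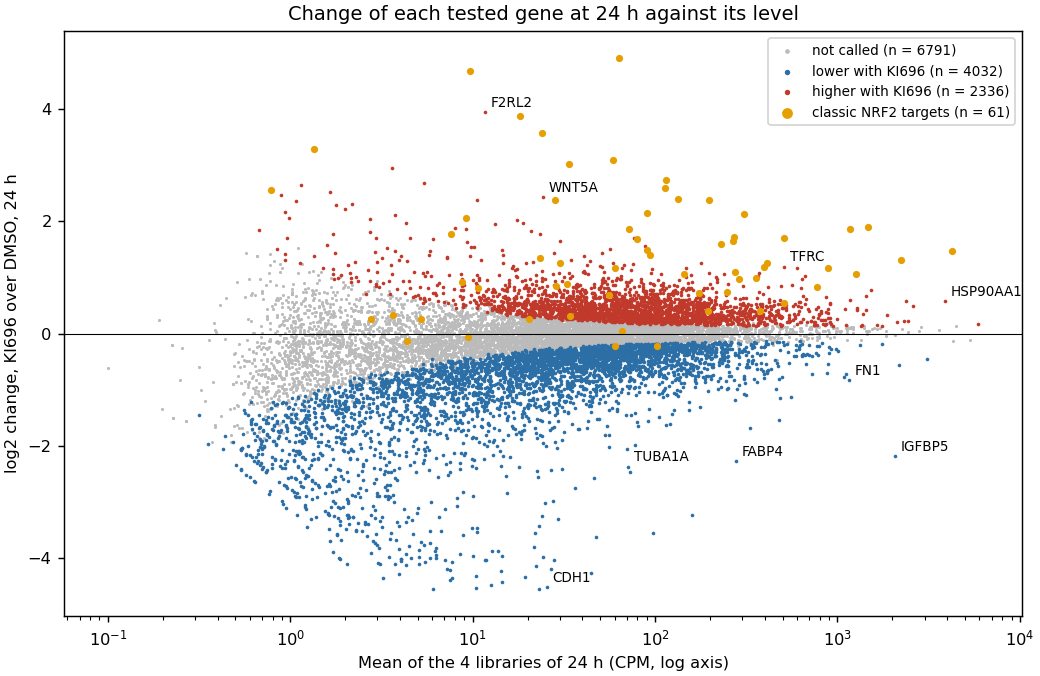
Log2 change of each tested gene at 24 h (KI696 over DMSO, vertical axis) against its mean over the 4 libraries of 24 h in CPM (horizontal log axis); each point is a gene, coloured by its call, with the classic NRF2 targets in orange. The 2336 increases outside that list are mostly small, with a median of 0.43, and the 402 decreases of at least 2 log2 units lie mostly among genes of low level.

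Genes at the limit of detection were lost in one direction. With KI696 706 and 712 genes of the table had no read, against 215 and 307 with DMSO. Of the tested genes 15 had no read in either KI696 library and at least 1 CPM in both DMSO libraries, and the reverse was true of 0. CHFR, a mitotic checkpoint ubiquitin ligase, was the most abundant of the 15, at a DMSO mean of 4.07 CPM, followed by GALNT14, which starts O-linked glycans, at 3.73 CPM. All 15 had reads in at least 1 KI696 library of 48 h, and 10 of the 15 were variable at 48 h.

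The largest increase outside the classic list was F2RL2, which encodes PAR3, a thrombin-cleaved receptor of the PAR family (chr5:76615482-76623434, minus strand, GRCh38). F2RL2 had 23.1 and 21.4 CPM with KI696, against 1.19 and 1.25 CPM with DMSO, a log2 change of 3.95 ± 0.21 (SE, n = 2 each; limma adjusted p = 4.6e-08). TRIM54, a RING protein of striated muscle, had 10.4 and 8.70 CPM with KI696, against 1.31 and 1.25 CPM with DMSO. Neither gene's groups came near each other. Secreted proteins followed. WNT5A, a ligand of non-canonical Wnt signalling (chr3:55465715-55490539, minus strand), had 44.8 and 37.9 CPM with KI696, against 6.88 and 8.03 CPM with DMSO (log2 change 2.43 ± 0.14). SPP1, osteopontin, had 18.6 and 17.1 CPM with KI696, against 3.92 and 2.63 CPM with DMSO (2.39 ± 0.24). PCOLCE2, which enhances the trimming of procollagen, rose by 1.96.

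Receptors, transporters and regulators made up the rest of the 12. LRP4, the agrin receptor of the LDL receptor family, had 29.6 and 26.5 CPM with KI696, against 6.53 and 6.92 CPM with DMSO. SLC12A8, a transporter of the cation-chloride family, rose by 1.97, CPLX3, a complexin that binds SNARE complexes, by 1.89, and RASL10B, a small GTPase, by 1.77. PPARGC1B, a coactivator of nuclear receptors that drives mitochondrial genes, had 30.1 and 34.8 CPM with KI696, against 7.60 and 10.5 CPM with DMSO (1.83 ± 0.15). NRARP, a feedback inhibitor of Notch, rose by 1.86. UNKL, a zinc finger protein related to Unkempt, was the most abundant of the 12, with 123 and 112 CPM with KI696, against 34.2 and 37.8 CPM with DMSO (1.70 ± 0.08).

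Among abundant genes, with a mean of at least 100 CPM, the 10 largest increases were between 1.02 and 1.27 log2 units. TFRC, the transferrin receptor that takes up iron, had 709 and 713 CPM with KI696, against 325 and 297 CPM with DMSO (1.19 ± 0.06). GPC1, a heparan sulfate proteoglycan of the cell surface, rose by 1.27, and BAG2, a cochaperone of HSP70, by 1.17. Several of the others are nucleolar proteins of ribosome production. DDX21, an RNA helicase of rRNA processing (chr10:68956128-68985073, plus strand), had 813 and 856 CPM with KI696, against 377 and 367 CPM with DMSO (1.17 ± 0.06; limma adjusted p = 2.8e-08). WDR43 of the small subunit processome rose by 1.08, the nucleolar proteins CCDC86 by 1.07, MYBBP1A by 1.05 and NOLC1 by 1.02. PPIF, the mitochondrial cyclophilin, rose by 1.07. All 22 increases named by the rule were also called after trimmed-mean scaling and with the lung lineage covariate.

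**Figure D2:**
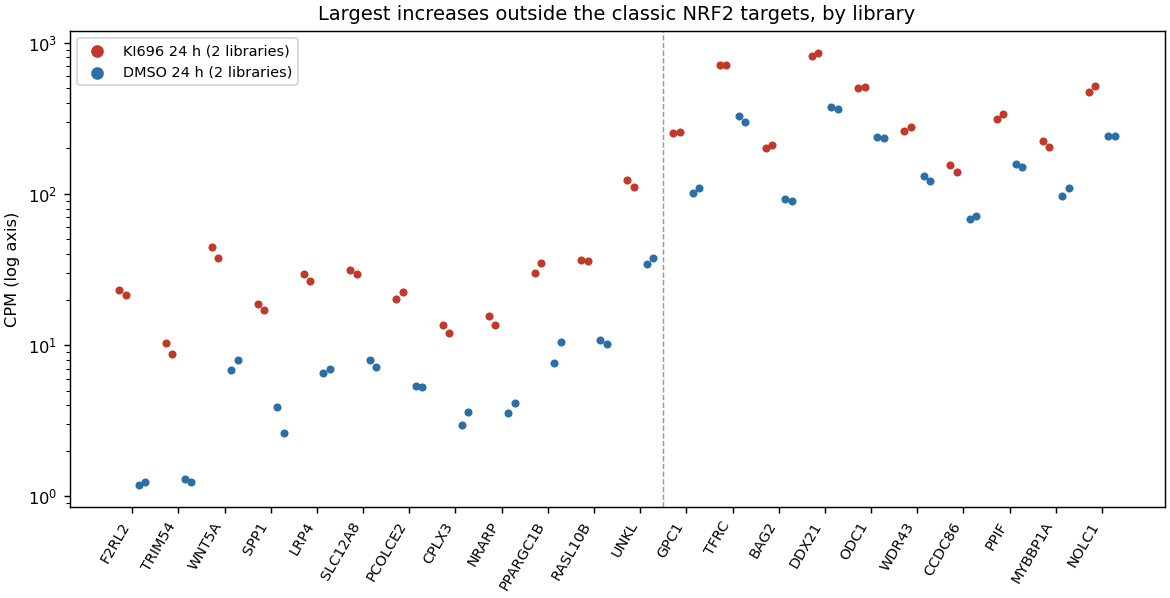
CPM of the 12 largest increases (left of the dashed line) and of the 10 largest with a mean of at least 100 CPM (right of it), on a log axis; each point is a library, KI696 left of DMSO within a gene. In all 22 genes both KI696 libraries lie above both DMSO libraries, which the rule for naming genes required. F2RL2 is the widest apart, at 23.1 and 21.4 CPM against 1.19 and 1.25 CPM.

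By CPM gained, chaperones came first, a ranking chosen after the values were seen. HSP90AA1 averaged 4662 CPM with KI696 and 3125 CPM with DMSO. HSPD1, the mitochondrial chaperonin, averaged 1924 CPM with KI696 and 1122 CPM with DMSO. IPO5, a nuclear import receptor, averaged 1762 CPM with KI696 and 1108 CPM with DMSO. SLC1A5, a glutamine transporter, averaged 893 CPM with KI696 and 440 CPM with DMSO. Reads shared with close relatives, such as HSP90AB1 and HSPA8 among the chaperones, cannot be separated here.

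The core of the antioxidant response element was looked for in the promoters of the increases, as TGACNNNGC on either strand, in the 300 bases from 250 before to 50 after each start in RefSeq (GRCh38.p14). Of 13213 tested genes 10442 had a promoter there (79.03%). The core was present in 10 of 37 promoters of classic targets that rose (27.0%), and in 9 of 95 of other genes that rose by at least 1 (9.47%). Among all 1918 promoters of increases outside the classic list 305 held it (15.9%), and among those of large decreases 13.4%. All tested promoters held it in 15.2% of cases and all 27305 promoters of the table in 13.6%. These shares say nothing of sites outside this window. The AP-1 motif TGANTCA, which shares its first letters with the core and can overlap it, was in 7 of the 95 promoters (7.37%), in 3.75% of the 1918, in 7.25% of the 938 promoters of large decreases and in 4.48% of tested promoters. The E-box CACGTG was in 17 of the 95 (17.9%), against 10.2% of tested promoters, 3 of the 37 classic targets (8.11%) and 5.97% of the promoters of large decreases.

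Of the 22 named increases 19 had a promoter and 4 of these held the core: UNKL, ODC1, CCDC86 and PPIF. The promoters of UNKL and ODC1 are shown as the members with the core nearest upstream of their starts, and that of F2RL2 as the largest increase, without it. They are RefSeq sequences on the minus strand of GRCh38.p14, at chr16:1379603-1379902 for UNKL, chr2:10448278-10448577 for ODC1 and chr5:76623354-76623653 for F2RL2. Capitals mark the core, which reads GCNNNGTCA on the strand shown. A match in letters is not a binding site.
UNKL: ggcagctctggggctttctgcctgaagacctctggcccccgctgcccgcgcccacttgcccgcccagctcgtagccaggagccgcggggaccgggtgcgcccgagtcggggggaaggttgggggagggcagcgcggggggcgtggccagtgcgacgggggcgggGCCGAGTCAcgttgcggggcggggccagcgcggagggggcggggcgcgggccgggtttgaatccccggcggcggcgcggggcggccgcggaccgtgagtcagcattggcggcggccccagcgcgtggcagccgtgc
ODC1: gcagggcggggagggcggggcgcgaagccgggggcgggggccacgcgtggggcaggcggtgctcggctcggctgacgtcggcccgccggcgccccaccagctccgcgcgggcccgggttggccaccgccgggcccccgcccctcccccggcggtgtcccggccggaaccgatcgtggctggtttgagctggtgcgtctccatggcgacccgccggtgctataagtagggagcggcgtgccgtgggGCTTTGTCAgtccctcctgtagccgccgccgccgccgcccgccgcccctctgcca
F2RL2: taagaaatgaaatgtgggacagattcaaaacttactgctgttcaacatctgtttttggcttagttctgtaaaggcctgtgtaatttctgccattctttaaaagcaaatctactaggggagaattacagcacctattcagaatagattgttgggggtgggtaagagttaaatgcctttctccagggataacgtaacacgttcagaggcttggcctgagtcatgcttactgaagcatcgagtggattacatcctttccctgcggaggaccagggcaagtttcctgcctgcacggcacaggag

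Genes of growth and RNA production rose broadly and by small amounts. In 9 lists of biosynthesis (purines, pyrimidines, polyamines, translation factors, RNA polymerases I and III, chaperonins, nuclear transport, splicing and mitochondrial import), 257 genes were tested, and 169 were higher and 10 lower, with 78 not called. Their median log2 change was 0.30, against −0.12 over all tested genes. The shares were 65.8% higher and 3.89% lower, beside 18.1% and 30.5% of all tested genes. These are abundant genes, with a median level of 125 CPM with DMSO. Genes of 100 to 500 CPM outside the classic list had a median of 0.05, with 34.6% higher and 27.1% lower. Of the 257 genes only 2 rose by at least 1, and 0 were variable at 48 h. After trimmed-mean scaling 208 were higher and 7 lower, and with the lung lineage covariate 106 were higher and 4 lower. Of the 169 genes 162 were also called higher in the separate libraries of 48 h, beside 1960 of all 2336 increases outside the classic list.

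Purine synthesis, which builds AMP and GMP from activated ribose, was higher in 13 of 16 tested genes, with a median of 0.51. PFAS, which adds a nitrogen from glutamine in the middle of the pathway, had 291 and 283 CPM with KI696, against 149 and 153 CPM with DMSO (log2 change 0.93 ± 0.07). PRPS1, which makes activated ribose, rose by 0.75, and PPAT, the committing step, by 0.71. GUK1, the guanylate kinase, was the 1 member that fell, by 0.31, a fall not called with the lung lineage covariate. Pyrimidine and deoxynucleotide genes were split, with 11 higher and 4 lower of 20. UCK2, a uridine kinase, rose by 0.81 and CTPS1, which makes CTP, by 0.78. The 4 that fell were the mitochondrial thymidine kinase TK2 by 1.09, RRM2B by 0.46, TK1 by 0.42 and CTPS2 by 0.25.

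In polyamine metabolism 5 of 14 tested members were higher and 2 lower, with a median of 0.07. ODC1, the rate-limiting enzyme (chr2:10439968-10448504, minus strand), had 501 and 505 CPM with KI696, against 239 and 235 CPM with DMSO (1.09 ± 0.09; limma adjusted p = 1.1e-06). SRM, spermidine synthase, had 135 and 137 CPM with KI696, against 71.4 and 69.1 CPM with DMSO. MTAP, which salvages the methylthioadenosine that SRM releases, rose by 0.70, AMD1 by 0.51 and DOHH, which finishes hypusine on EIF5A, by 0.46. SAT1, the acetyltransferase of breakdown, had 46.4 and 46.6 CPM with KI696, against 87.6 and 78.6 CPM with DMSO, a fall that was not called with the lung lineage covariate. OAZ2, an antizyme that targets ODC1 for degradation, fell by 0.32, and this fall too was not called with that covariate. The other 7 were not called.

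Of the transcription and processing machinery, RNA polymerases I and III had 20 of 34 members higher, led by POLR1B (158 and 166 CPM with KI696, against 93.2 and 95.5 CPM with DMSO). POLR3GL was lower by 0.99 while its paralog POLR3G was higher by 0.98, and MAF1, the repressor of polymerase III, was lower by 0.18. Splicing factors were higher in 39 of 51 and lower in 0, with a median of 0.26. HNRNPAB had 523 and 493 CPM with KI696, against 321 and 344 CPM with DMSO. Nuclear pore and transport genes were higher in 32 of 45 and lower in 0, with NUP153, a protein of the pore basket, at 275 and 268 CPM with KI696, against 160 and 162 CPM with DMSO.

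Translation factors were higher in 20 of 35, with EIF3B up by 0.62 and EIF3J by 0.65, and EIF4A2 was the 1 that fell, by 0.21. These counts moved with the processing: 28 were higher and 0 lower after trimmed-mean scaling, and 16 higher and 5 lower after quantile scaling. With the lung lineage covariate 10 were higher and 0 lower. The chaperonin CCT, which folds actin and tubulin, and its partner prefoldin were higher in 11 of 15 and lower in 0, with TCP1 up by 0.53. Mitochondrial import was higher in 18 of 27 and lower in 0. TOMM40, the channel of the outer membrane, had 403 and 381 CPM with KI696, against 217 and 217 CPM with DMSO (0.85 ± 0.06).

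Genes of homologous recombination and the Fanconi pathway were higher in 16 of 32 and lower in 0, led by XRCC2, up by 0.89, XRCC3, up by 0.74, and the nuclease EXO1, up by 0.73. Without DMSO library A the count was 8, without KI696 library B it was 9, and with the lung lineage covariate it was 5. The other repair pathways were mixed, with 12 of 36 higher (33.3%) and 7 lower (19.4%). Of all tested genes 18.1% were higher and 30.5% lower. MSH6 of mismatch repair rose by 0.45 and the glycosylase MPG fell by 0.58. Without KI696 library A 7 were higher, and without DMSO library A 6, while 3 were lower without KI696 library B and without DMSO library B. With the lung lineage covariate 2 were higher and 2 lower.

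**Figure D3:**
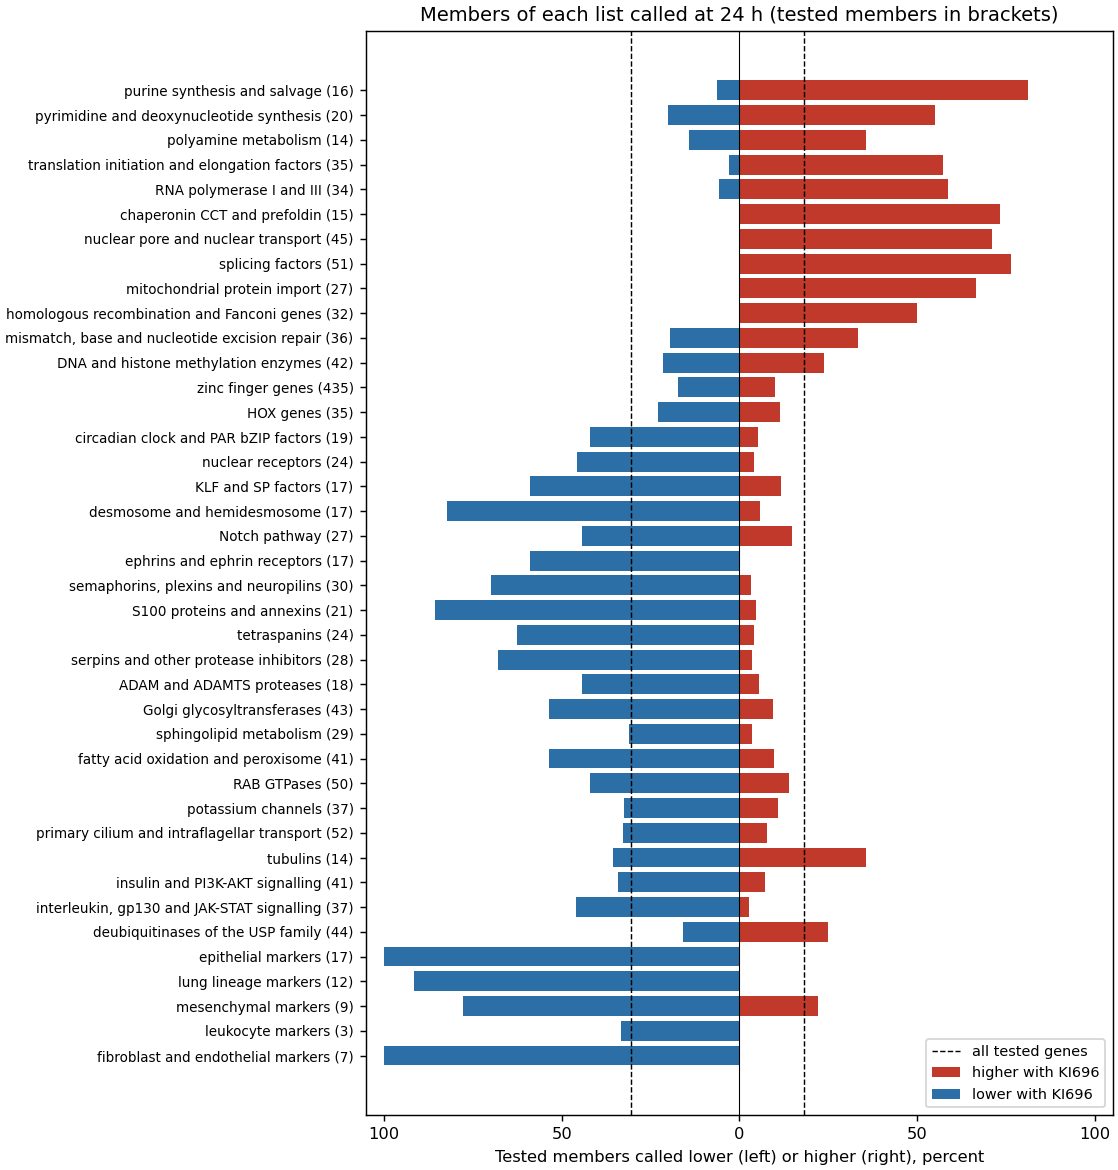
Share of the tested members of each list that was called higher (right, red) or lower (left, blue) with KI696 at 24 h, in percent, with the number tested in brackets; dashed lines mark 18.1% higher and 30.5% lower over all tested genes. Purine synthesis reaches furthest right, with 13 of 16, and, apart from the marker lists at the bottom, S100 proteins and annexins furthest left, with 18 of 21; the medians of zinc finger genes, HOX genes, potassium channels, sphingolipid metabolism and the cilium list change sign with quantile scaling, and that of the USP family with the lung lineage covariate.

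The largest decreases were of epithelial genes and lay with the variable pattern. CDH1, E-cadherin of adherens junctions (chr16:68737225-68835548, plus strand), had 1.10 and 2.99 CPM with KI696, against 60.8 and 37.6 CPM with DMSO (log2 change −4.53 ± 0.74; limma adjusted p = 0.00027). At 48 h CDH1 had 29.02 and 4.46 CPM with KI696, against 34.3 and 7.39 CPM with DMSO, so that the libraries differed more than the treatments. ST14, matriptase, a protease of epithelial surfaces, had 0.735 and 3.14 CPM with KI696, against 35.6 and 38.1 CPM with DMSO. The largest decreases ran from −4.56 to −4.25 and included, beside CDH1 and ST14, the genes SFTA3, NAPSA, GPR110, SCEL, STEAP4, TMEM30B, ARHGDIB, FAM83A and S100A14. All of these named genes were variable at 48 h, and all lost the call with the lung lineage covariate, where GPR110, NAPSA and S100A14 changed sign. SFTA3 and NAPSA are among the markers whose mean is that covariate. Its slope comes from differences between the 2 libraries of a group, which lay mostly at 48 h. The markers' mean log2 level there was 2.80 in A and 0.10 in B with KI696, and 1.81 and 0.73 with DMSO. At 24 h it was 0.53 and 0.65 with KI696, and 3.37 and 3.50 with DMSO. Genes variable at 48 h were picked by such differences, so for none of these named genes is the fit an independent check. Without KI696 library A the calls of GPR110, NAPSA, SCEL, FAM83A and S100A14 were lost, and that of S100A14 also without DMSO library A. SFTA3, the largest, had 2 reads in each KI696 library.

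Without the genes variable at 48 h the largest decreases included KRT4, TMEM45B, CST6, USP25, ITGB4, SCNN1A, B3GNT3, SPTB, KRT19, GJB2 and CEACAM1. Of these ITGB4, SCNN1A, B3GNT3, KRT19 and CEACAM1 were still called with the lung lineage covariate, at −2.04, −1.18, −1.79, −1.19 and −2.83, against −3.64, −3.56, −3.53, −3.23 and −3.02 without it. KRT4 lost its call without KI696 library A. Of the genes named so far in this paragraph, all but ITGB4 and CEACAM1 also had a higher A than B library in both 48 h groups. SCNN1A had 25.8 and 4.55 CPM with KI696 at 48 h, against 17.8 and 13.5 CPM with DMSO. GJB2 had 6.73 and 1.84 CPM with KI696 at 48 h, against 25.7 and 12.9 CPM with DMSO. KRT4 had 17.1 and 0.678 CPM with KI696 at 48 h, against 4.80 and 2.70 CPM with DMSO. TMEM45B had 4.77 and 0.0969 CPM with KI696 at 48 h, against 2.06 and 1.35 CPM with DMSO, and CST6 5.19 and 0.484 CPM with KI696, against 2.33 and 1.07 CPM with DMSO. CEACAM1, an adhesion receptor of the immunoglobulin family, had 1.22 and 0.998 CPM with KI696, against 10.8 and 10.5 CPM with DMSO (−3.02 ± 0.20), and 3.93 and 3.29 CPM against 34.7 and 35.97 CPM at 48 h. ITGB4, the hemidesmosomal integrin (chr17:75721328-75757818, plus strand), had 5.63 and 8.13 CPM with KI696, against 97.3 and 77.9 CPM with DMSO (−3.64 ± 0.39). KRT19, a keratin of simple epithelia, had 25.4 and 35.2 CPM with KI696, against 353 and 227 CPM with DMSO. For KRT19 the KI696 libraries of 48 h were far apart, at 139 and 36.2 CPM, and the DMSO libraries had 167 and 92.8 CPM.

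USP25, a deubiquitinase on chromosome 21, had neighbours that moved with it, a feature chosen after the values were seen. USP25 had 0.367 and 0.713 CPM with KI696, against 9.73 and 10.8 CPM with DMSO. The adjacent NRIP1, a corepressor of nuclear receptors, had 0.367 and 0.998 CPM with KI696, against 18.2 and 11.5 CPM with DMSO, and HSPA13 had 0.490 and 0.428 CPM with KI696, against 6.65 and 8.16 CPM with DMSO. Within 3 Mb of the start of USP25 6 genes were tested, and the other 3 did not come near 0: CXADR had 34.8 and 37.2 CPM with KI696, against 63.7 and 62.3 CPM with DMSO, and BTG3 and C21orf91 were not called. At 48 h NRIP1 had 11.2 CPM in library A and 1.55 CPM in B with KI696, against 10.6 CPM in A and 1.85 CPM in B with DMSO, which is the order of NKX2-1.

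Several abundant genes fell with close libraries. IGFBP5, a secreted binding protein of insulin-like growth factors (chr2:216672105-216695525, minus strand), lost the most CPM of any gene, with 801 and 694 CPM with KI696, against 3303 and 3485 CPM with DMSO (−2.19 ± 0.12; limma adjusted p = 6.1e-08). FABP4, a fatty acid carrier, had 94.8 and 95.1 CPM with KI696, against 490 and 432 CPM with DMSO (−2.27 ± 0.11). RGS1, which turns off G protein signals, had 53.9 and 57.6 CPM with KI696, against 183 and 164 CPM with DMSO. For none of these 3 did the groups come near each other. MVP, the major vault protein, fell by 1.62, TGM2, a transglutaminase, by 1.49, LAMB2, a laminin chain, by 1.43 and GSN, gelsolin, which cuts actin filaments, by 1.37. KRT7 and KRT8 fell by 1.69 and 1.54. All 10 of these abundant decreases, KRT19 among them, were called with the lung lineage covariate. Of matrix and cytoskeletal genes that lost the most CPM, a ranking chosen after the values were seen, ACTG1, a cytoskeletal actin, averaged 1764 CPM with KI696 and 2598 CPM with DMSO, FN1 836 CPM with KI696 and 1489 CPM with DMSO, VIM 2610 CPM with KI696 and 3586 CPM with DMSO, and TGFBI 800 CPM with KI696 and 1371 CPM with DMSO.

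**Figure D4:**
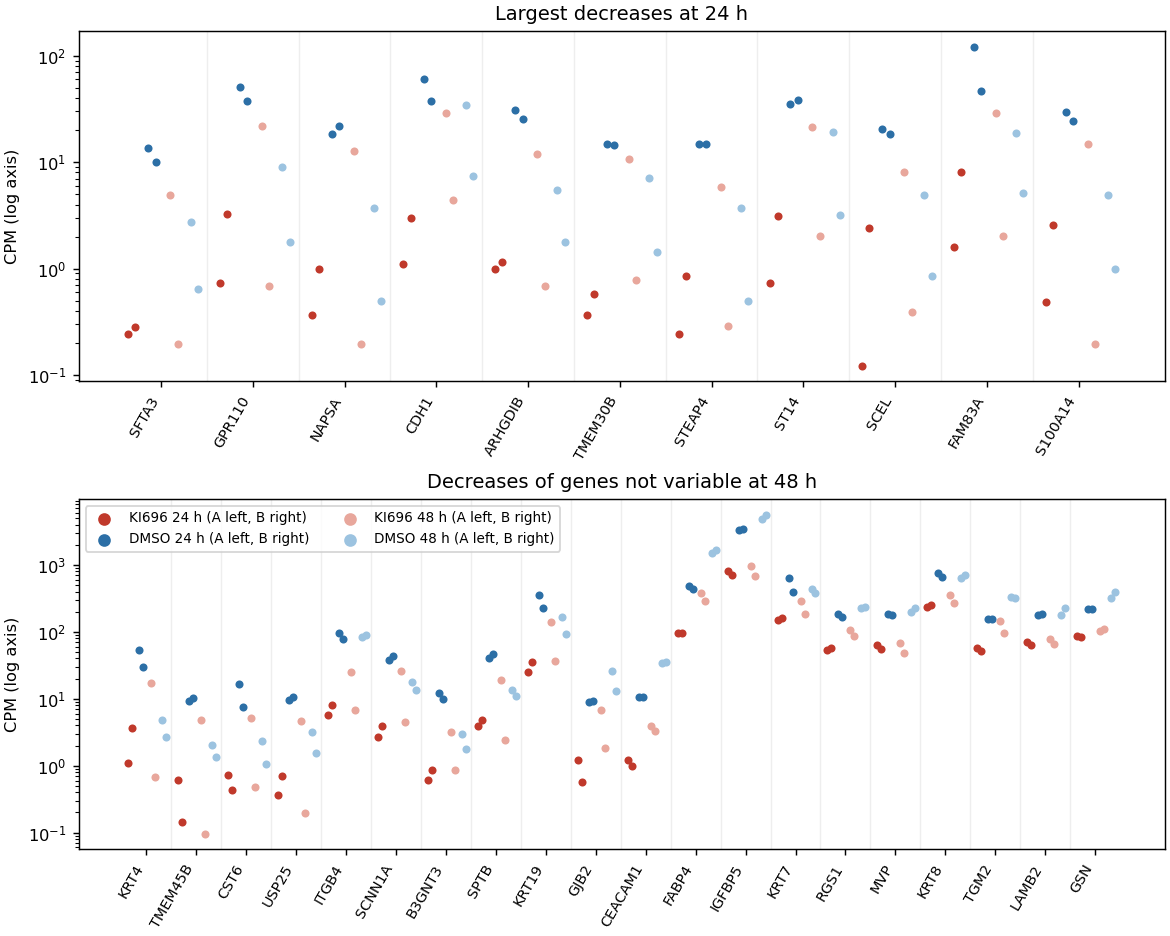
CPM of the named decreases in all 8 libraries on a log axis; within a gene the order is KI696 24 h, DMSO 24 h, KI696 48 h and DMSO 48 h, with library A left of B. The largest decreases (top) have a higher A than B library in both 48 h groups, as CDH1 with 29.02 and 4.46 CPM and 34.3 and 7.39 CPM. IGFBP5 and FABP4 (bottom) have closer libraries at 24 h. With KI696 at 48 h their A libraries lie above B, at 972 and 686 CPM for IGFBP5 and 383 and 290 CPM for FABP4. With DMSO at 48 h B lies above A for both genes.

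Lists of cell surface and secreted proteins were mostly lower. In 8 lists (desmosomes, Notch, ephrins, semaphorins, S100 proteins and annexins, tetraspanins, protease inhibitors and ADAM proteases), 181 genes were tested, and 116 were lower and 10 higher, with a median of −0.66. The shares were 64.1% lower and 5.52% higher, beside 30.5% and 18.1% of all tested genes. Of the 116 genes 103 were not variable at 48 h, and 61 fell by at least 1. After trimmed-mean scaling 104 were lower and 15 higher, and with the lung lineage covariate 62 were lower and 5 higher. In the separate libraries of 48 h 74 of the 116 were called lower, beside 2635 of all 4032 decreases outside the classic list.

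Desmosome and hemidesmosome genes were lower in 14 of 17. PPL, periplakin, which ties keratins to desmosomes, had 13.7 and 12.5 CPM with KI696, against 80.9 and 78.1 CPM with DMSO (−2.58 ± 0.16). JUP, plakoglobin, fell by 2.06, while PKP4 was the 1 member higher, by 0.49. S100 proteins and annexins, which bind calcium and membranes, were lower in 18 of 21, with S100A4 at 150 and 140 CPM with KI696, against 256 and 233 CPM with DMSO. ANXA10 was the 1 that rose, with 5.88 and 6.41 CPM with KI696, against 0.831 and 1.80 CPM with DMSO.

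Semaphorins, plexins and neuropilins were lower in 21 of 30, with a median of −0.88. NRP1, a receptor shared by class 3 semaphorins and VEGF, had 130 and 127 CPM with KI696, against 264 and 256 CPM with DMSO (−1.02 ± 0.06). Its ligand SEMA3C had 93.3 and 90.4 CPM with KI696, against 217 and 210 CPM with DMSO. SEMA7A was the 1 higher member, by 0.78. Its call was lost without KI696 library B, without DMSO library A and with the lung lineage covariate. Ephrins and their receptors were lower in 10 of 17 and higher in 0, with EPHB6 down by 0.95 and EPHA4 by 1.36, and 6 were lower without KI696 library B.

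The Notch list moved in parts. The receptor NOTCH3 had 76.1 and 66.6 CPM with KI696, against 35.2 and 31.3 CPM with DMSO, and NRARP, MAML1 and NUMBL were also higher. LFNG, which adds a sugar to Notch receptors, had 26.7 and 25.9 CPM with KI696, against 81.3 and 85.2 CPM with DMSO. The target gene HEY1 fell by 0.84, and in all 12 of 27 members were lower and 4 higher, against 8 lower and 5 higher after trimmed-mean scaling. Tetraspanins were lower in 15 of 24, led by CD9, with 23.0 and 20.5 CPM with KI696, against 93.3 and 86.4 CPM with DMSO. Their 1 higher member, TSPAN7, had at most 2.00 CPM in the 4 libraries. It lost its call without KI696 library A, without KI696 library B, without DMSO library B and with the lung lineage covariate.

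Protease inhibitors were lower in 19 of 28, and 5 of the 28 were variable at 48 h. TIMP3, an inhibitor of metalloproteinases held in the matrix, had 358 and 339 CPM with KI696, against 765 and 760 CPM with DMSO (−1.13 ± 0.07). SPINT2, which inhibits surface serine proteases, had 209 and 192 CPM with KI696, against 440 and 420 CPM with DMSO. TIMP4 was the 1 higher member, by 0.60. Its call was lost without either KI696 library, without DMSO library A and with the lung lineage covariate. Of ADAM and ADAMTS proteases 8 of 18 were lower, led by ADAMTS9 with a fall of 1.81, and ADAM17, the sheddase of TNF, was the 1 that rose, by 0.54.

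Tubulin genes moved both ways, with 35.7% of those tested higher and 35.7% lower, beside 18.1% and 30.5% of all tested genes. TUBA1A, an alpha tubulin best known from neurons, had 22.0 and 23.8 CPM with KI696, against 122 and 118 CPM with DMSO (−2.38 ± 0.14). TUBA4A, another alpha tubulin, had 128 and 136 CPM with KI696, against 47.6 and 41.9 CPM with DMSO (1.55 ± 0.11). TUBB3 fell by 0.75, while the abundant TUBA1B rose by 0.37. In all 5 of 14 were higher and 5 lower, with 3 lower without KI696 library B and without either DMSO library. Coding sequences of these paralogs are alike, and reads that the counting could not place are not known.

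Of JAK-STAT genes 17 of 37 were lower and 1, PIAS2, higher, with STAT3, the factor downstream of gp130, at 44.7 and 46.6 CPM with KI696, against 82.2 and 82.5 CPM with DMSO, and the receptor LIFR down by 1.90. Fatty acid oxidation and peroxisome genes were lower in 22 of 41, with DECR1 of beta oxidation down by 1.01 and the carnitine acetyltransferase CRAT by 1.14, and 13 were lower without KI696 library B. Golgi glycosyltransferases were lower in 23 of 43, or 15 without KI696 library B and 5 with the lung lineage covariate, and 5 of the 43 were variable at 48 h. B4GALT1 fell by 0.75. RAB GTPases were lower in 21 of 50, with RAB5B of early endosomes down by 0.97. Insulin and PI3K genes were lower in 14 of 41 (34.1%), beside 30.5% of all tested genes, or in 9 without KI696 library B, with SESN3 down by 1.22, while EIF4EBP1, the brake on cap-dependent translation, rose by 0.76.

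Among transcription factors, nuclear receptors were lower in 11 of 24, with NR2F1 down by 0.90 and the retinoic acid receptor RARB the 1 that rose, by 1.05. KLF and SP factors were lower in 10 of 17, with KLF6 down by 0.56. Clock genes were lower in 8 of 19, with BHLHE41 down by 0.50 and ARNTL by 0.74, and 5 were lower without KI696 library A. HOX genes had 8 lower and 4 higher of 35, or 6 lower and 8 higher after trimmed-mean scaling. HOXD13 was the largest of those that rose, with 9.67 and 8.98 CPM with KI696, against 2.85 and 2.63 CPM with DMSO. Only 2 HOX genes were higher without DMSO library A, and the HOX counts of lower genes were 4 without KI696 library A, 5 without KI696 library B and 4 without DMSO library B. The 435 zinc finger genes had 75 lower and 43 higher, and 52 lower and 75 higher after trimmed-mean scaling. Of all tested genes 30.5% were lower and 18.1% higher as deposited, and 23% lower and 25.8% higher after that scaling. Zinc finger counts were 25 higher without KI696 library B, 28 higher and 46 lower without DMSO library A, and 26 higher and 38 lower without DMSO library B. DNA and histone methylation enzymes had 10 higher and 9 lower of 42, and 16 higher and 4 lower after trimmed-mean scaling, with PRMT1 up by 0.59 and KDM5B down by 0.57.

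Cilium genes were lower in 17 of 52 (32.7%) and higher in 4 (7.69%), beside 30.5% and 18.1% of all tested genes. Potassium channels were lower in 12 of 37 and higher in 4, and sphingolipid genes were lower in 9 of 29 and higher in 1. The USP deubiquitinases were lower in 7 of 44 (15.9%) and higher in 11 (25.0%). Without 1 library the count of lower genes fell to 11 (KI696 library B) and 9 (DMSO library B) for the cilium, 7 (KI696 library A) for potassium channels and 3 (KI696 library B, DMSO library A) for USP genes. In these lists BBS2 of the ciliary coat fell by 1.09, the potassium channel KCNN4 by 0.94 and the acid sphingomyelinase SMPD1 by 1.37. USP7, which spares MDM2 and p53 from degradation, rose by 0.49.

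The libraries of 48 h, which share none with those of 24 h, gave the same direction for most of these genes. Both comparisons used 1 shared estimate of each gene's spread, so calls at 24 h and at 48 h are not fully independent. Of the 2336 genes higher at 24 h 2281 had a positive change at 48 h, against 5769 of all 13213 tested genes, and 1960 were called higher there. Of the 132 large increases 130 were positive and 113 called. At 48 h 2955 genes were higher in all (22.4%) and 3490 lower (26.4%). Of the 4032 lower genes 3753 had a negative change at 48 h and 2635 were called lower. The 1071 large decreases not variable at 48 h were negative in 996 cases and called lower in 677. The 214 variable genes that were lower at 24 h were negative in 162 cases and called lower in 5. These genes were picked by a difference of at least 1 log2 unit between the libraries of both 48 h groups. Their standard errors are therefore wide by selection, and the count of 5 cannot show whether they changed at 48 h.

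The difference between the effects was itself tested, and 112 genes (0.848%) passed. Among genes outside the classic list these were 15 of the 2336 increases and 66 of the 4032 decreases, and 0 of the 132 large increases. Leaving out libraries moved this count from 1 (without KI696 library B of 24 h) to 530 (without KI696 library B of 48 h), with 2 without KI696 library A of 24 h, 5 and 3 without DMSO library A and B of 24 h, and 503 without DMSO library A of 48 h. FN1 was lower with KI696 than with DMSO by 0.83 at 24 h and by 1.72 at 48 h. B4GALT1 was lower by 0.75 at 24 h, beside a change of −0.04 at 48 h.

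**Figure D5:**
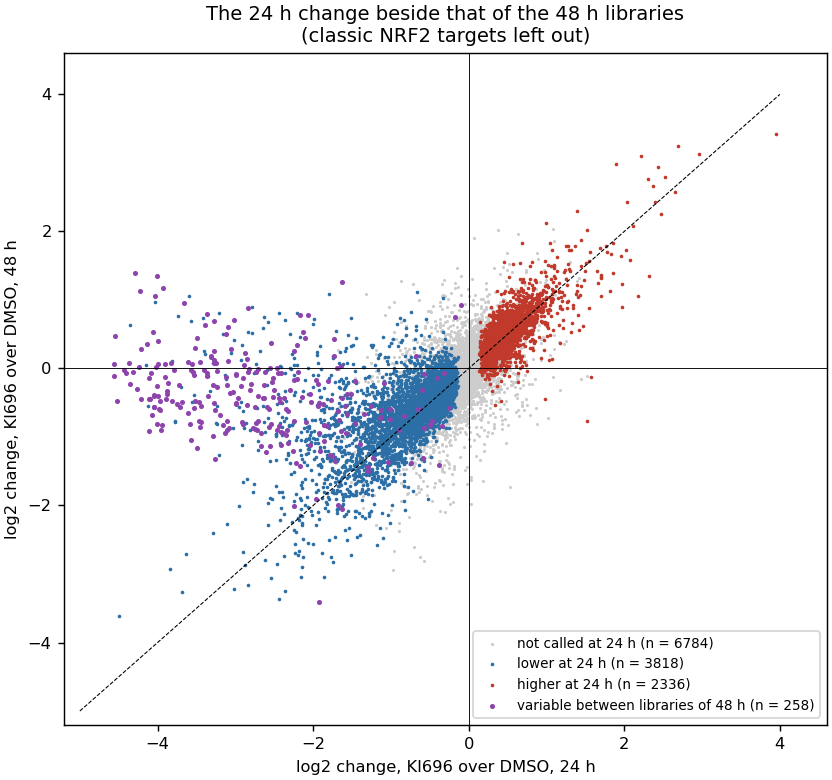
Log2 change with KI696 at 48 h (vertical axis) against that at 24 h (horizontal axis) for tested genes outside the classic NRF2 list; each point is a gene, the dashed line marks equal changes, and purple points are the 258 genes variable between the libraries of both 48 h groups. Genes higher at 24 h (red) lie along the line, and the purple genes spread far to the left at 24 h, with a median of −2.76, but around a median of −0.43 at 48 h.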

How the data were processed

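Messenger RNA libraries of Calu-6 cells were read as single ends on a NextSeq 500, per the labels' protocols. The deposited table holds log2 CPM values made by the authors. The submitters' processing notes name hg38, R 4.0.3 and edgeR (no version); aligner, counter, annotation, strand: not given in the sources used here. That the values are log2 of CPM with a small added count was read from the values: antilogs step in whole reads (100% within 0.01 of a whole number), from which reads and CPM were recovered. Series totals ran from 6974235 to 14170211 reads. Headers name the condition but no replicate number; A and B follow column order. Of 14556 genes 21 with symbols turned into dates were left out, and 0 columns of values were unused.

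The deposited log2 values were tested with limma 3.58.1 (R 4.3.3), with a mean per group over all 8 libraries, a variance trend, two-sided tests and Benjamini-Hochberg adjustment over 13213 genes at 0.05 (4 residual degrees of freedom, 13.1 in all). The procedure was tested on simulated data. Count models were not run. Coordinates come from GENCODE 29 (GRCh38), which matched 12229 symbols (92.6%). Promoters come from RefSeq.

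The 35 gene lists, 5 marker lists and the classic NRF2 list were chosen with earlier results of these data known, and so was the comparison. Named genes are called genes outside the classic list, with a mean of at least 5 CPM and no overlap between groups: the 12 largest each way, the 10 largest each way from 100 CPM, the 12 largest decreases without genes variable at 48 h, up to 3 members per list by smallest p, and members behind a count of 5 or fewer. A few others are marked in the text as chosen after their values were seen, and a few that meet the rule are not reported here.

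The alternatives were trimmed-mean and quantile scaling, pseudocounts of 0.25, 1 and 5 CPM, no filter and a filter of 5 CPM, the 24 h libraries alone, no variance trend, the lung lineage markers as a covariate and leaving out each library. Fitting without the A libraries of 48 h was added after seeing the data.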

Additional observations from a re-analysis of the deposited data

Results flagged for a closer look

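The effect of KI696 differed between 24 h and 48 h, by a test of the difference itself (limma, adjusted p under 0.05), in 112 of 13213 genes. Among the genes named here the difference of log2 effects, 24 h minus 48 h, was −3.14 for the glycosyltransferase B3GNT3. It was −1.29 for the cytokine receptor LIFR, −1.11 for the tetraspanin CD9, −0.927 for the protease inhibitor SERPINB1 and −0.707 for B4GALT1. These genes lay further below DMSO at 24 h. The difference was 0.531 for TIMP3, 0.64 for TUBB3 and 0.888 for FN1, which lay further below DMSO at 48 h. With DMSO FN1 had 1491 and 1487 CPM at 24 h and 2747 and 2549 CPM at 48 h. With KI696 FN1 had 863 and 809 CPM at 24 h and 918 and 701 CPM at 48 h. TIMP3 was higher at 48 h than at 24 h in both groups. The count itself moved with single libraries and with the lung lineage covariate, as given under the processing.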

How the results depend on the processing

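No paired analysis was possible because the column headers carry no replicate number. The numbers of genes called higher and lower at 24 h were within 1.5 times those reported under both scalings, the 3 pseudocounts, both filters, the 24 h libraries alone and no variance trend. With the lung lineage covariate 1092 were higher and 1892 lower, 1882 of the lower ones outside the genes variable at 48 h. Genes higher by at least 1 numbered 455 with quantile scaling and 83 with a pseudocount of 5 CPM. Genes lower by at least 1 numbered 621 with quantile scaling, 331 with a pseudocount of 5 CPM, 750 with a filter of 5 CPM and 561 with the covariate. Genes whose effect differed between times numbered 190 with a pseudocount of 5 CPM, 5 with no filter, 0 with no variance trend, 63 with the covariate, 838 without the A libraries of 48 h and 1 to 530 when each library was left out. With the covariate GPR110, NAPSA and S100A14 turned to 0.44, 0.81 and 1.20. Of 168 named genes 144 kept direction and call with the covariate, 168 with trimmed-mean scaling and 161 without KI696 library A of 24 h. Where a library was left out of a group of 2, the lone library is assumed to vary like the other groups. The causes of these shifts were not tested. At the depth of 6974235 to 8265115 reads, changes of genes under 5 CPM had a median standard error of 0.41.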
